A study of Homo sapiens with 4 samples.

Results

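MG-63 and Saos-2 are established human osteosarcoma cell lines, and the 2 arrays of MG-63 were set against the 2 arrays of Saos-2 to describe how the lines differ in gene expression. One array of each line came from cells transfected with sh-NC, a control short hairpin RNA, and the other from cells transfected with sh-circ_0000073, a short hairpin RNA against the circular RNA hsa_circ_0000073. The sample titles write si in place of sh, so the kind of RNA is given as the transfection labels and the study's methods have it. Each of the 4 combinations of line and hairpin was therefore measured on a single array. A gene was kept as a line difference where MG-63 minus Saos-2 was at least 1 log2 unit (2-fold) with each hairpin, had the same sign, and the smaller of the 2 differences was at least 50% of the larger. Of 33458 genes with a probe set of exactly 1 symbol, 6139 met this rule, 3259 higher in MG-63 and 2880 in Saos-2. These are 9.74% and 8.61% of the genes. Because the rule itself uses the size and the likeness of the differences, the set is described and not tested. Both lines were kept in the same medium by the study's methods, each tumour is represented by a single line, and the labels do not say that the arrays came from separate cultures. Line, culture and array processing therefore cannot be told apart. The errors below are the standard errors of a limma fit with the hairpin as a block, so they leave out any shift between the hairpins that both lines share. They rest on 1 residual and 6.43 prior degrees of freedom, the latter drawn from the other probe sets, and cover only the spread among these 4 arrays.

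Osteoblasts are the cells that lay down bone. Their program runs from transcription factors such as RUNX2 and SP7 to the alkaline phosphatase ALPL, which frees phosphate for mineral, and to matrix proteins such as IBSP, which seeds mineral in collagen. Osteosarcomas arise from this lineage and commonly lose control of the cell cycle through RB1, which holds back the E2F factors, or through the CDKN2A locus, whose products restrain cyclin-dependent kinases and MDM2. The textbook picture of Saos-2 is a line with osteoblast features that lacks a functional RB1, and that of MG-63 is a fibroblast-like line that lacks CDKN2A.

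Signals are log2 values, and a line difference is always MG-63 minus Saos-2, so that genes higher in Saos-2 have negative values. In each list of values the sh-NC array comes first and the sh-circ_0000073 array second. The array gives no detection call, so the level of genes that these cells are not known to use was taken as a guide to background: over 375 olfactory receptor genes the 95th percentile was 4.99 and 5.02 in MG-63 against 4.62 and 4.87 in Saos-2. Where one line lies at such a level, the low side is uncertain and the size of the difference with it. Arrays of the same line correlated at 0.987 and 0.988 over all probe sets, and arrays of different lines at 0.924 to 0.928.

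The line had a larger part in these arrays than the hairpin. Over all genes the SD of the log2 difference was 1.425 for the line and 0.34 for the hairpin, and 7703 genes differed by at least 2-fold on average between the lines against 512 between the hairpins. Among 6297 genes that reached 2-fold with each hairpin, 5 pointed in opposite directions and 153 missed only the likeness limit, while 3577 further genes reached 2-fold with 1 hairpin only. At the edge of the rule stood B2M, the light chain of MHC class I, with differences of 1 and 1.1, and just outside it EIF3K, a translation initiation factor subunit, with 1.46 and 0.99. The likeness limit passed between GLO1, a glyoxalase, at 1.45 and 2.8, and FTL, the ferritin light chain, at 2.14 and 1.05. Of the alike genes, 442 differed by at least 16-fold with each hairpin in favour of MG-63 and 306 in favour of Saos-2.

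**Figure D1:**
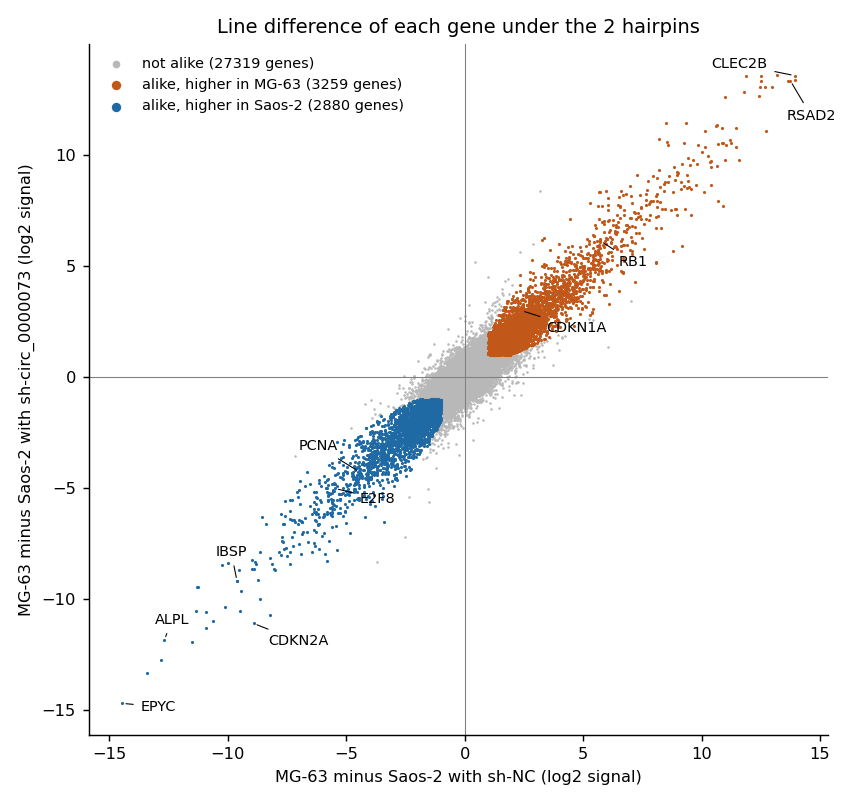
Each point is 1 gene, with MG-63 minus Saos-2 in log2 signal on the sh-NC arrays on the horizontal axis and on the sh-circ_0000073 arrays on the vertical axis. Orange points are the 3259 alike genes higher in MG-63, blue points the 2880 alike genes higher in Saos-2 and grey points all others, and the alike genes lie along the diagonal because the rule selects them there.

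With the hairpin as a block, limma called 4968 of 36176 probe sets higher in MG-63 (13.7%) and 4312 higher in Saos-2 (11.9%) at an adjusted p under 0.05. With the brightest probe set standing for each gene, 14.2% of genes were called higher in MG-63 and 12.1% higher in Saos-2. Among the 12187 genes with a log2 signal of at least 6 on both arrays of a line, the shares were 30.7% and 27%. The counts of each gene list below are read against these shares, since a list of expressed genes would hold many called members in any case. All 6139 alike genes were called, and list members were mostly named for the size of their difference. The p-values printed for them are therefore no independent support. With a single array left out the number of calls about halved for each of the 4 arrays: it was 2455 and 1894 without MG-63 sh-NC, 2379 and 1848 without MG-63 sh-circ_0000073, 2172 and 2213 without Saos-2 sh-NC, and 2509 and 2119 without Saos-2 sh-circ_0000073, with genes higher in MG-63 given first.

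The 4 genes that mark the lines followed the textbook picture given above. ALPL had signals of 16.57 and 15.81 in Saos-2 against 3.89 and 3.97 in MG-63, a line difference of -12.26 ± 0.31 SE over 2 arrays of each line, adjusted p = 1.07e-06 from limma. IBSP had 13.23 and 12.73 in Saos-2 against 3.62 and 3.54 in MG-63 (-9.4 ± 0.29 SE, adjusted p = 1.8e-06). Both bone genes were thus at background on the MG-63 arrays and among the most unequal genes of the table, and the arrays of the lines did not overlap. RB1 had 11.9 and 11.91 in MG-63 against 6.17 and 5.78 in Saos-2 (5.93 ± 0.29 SE, adjusted p = 9.49e-06). Its signal in Saos-2 lay above the 95th percentile of the olfactory receptor genes there, 4.62 and 4.87. CDKN2A had 11.9 and 14.04 in Saos-2 against 2.99 and 2.94 in MG-63 (-10.01 ± 0.49 SE, adjusted p = 1e-05). The Saos-2 array with sh-circ_0000073 lay above that with sh-NC for CDKN2A, and the other 3 markers varied less within a line. The arrays are of bulk RNA, in which fewer cells of a type and less RNA per cell cannot be told apart.

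The osteoblast transcription factors leaned to Saos-2. Of 22 measured, 10 were called higher in Saos-2 and 5 higher in MG-63, and the median line difference was -0.73 against 0.05 over all genes. RUNX2, the master regulator of osteoblast fate, had 16.53 and 16.39 in Saos-2 against 7.57 and 7.72 in MG-63 (-8.82 ± 0.24 SE, adjusted p = 1.17e-06). SP7 (osterix), which acts after RUNX2, had 9.77 and 8.66 in Saos-2 against 2.83 and 2.94 in MG-63 (-6.33 ± 0.36 SE, adjusted p = 1.8e-05). Its signal in MG-63 was that of background. DLX5, a homeobox factor of bone formation, had 14.22 and 12.8 in Saos-2 against 2.95 and 3.35 in MG-63 (-10.36 ± 0.44 SE, adjusted p = 5.47e-06), and its neighbour DLX6 8.29 and 6.82 in Saos-2 against 2.98 and 2.98 in MG-63 (-4.58 ± 0.38 SE, adjusted p = 0.00011). On every Saos-2 array these 4 factors lay above both MG-63 arrays. MEF2C, a factor of bone and muscle, was well expressed in both lines but higher in Saos-2, at 17.85 and 17.28 in Saos-2 against 12.24 and 11.22 in MG-63 (-5.84 ± 0.21 SE, adjusted p = 2.83e-06). LEF1, the nuclear partner of beta-catenin, had 10.18 and 9.92 in Saos-2 against 5.91 and 4.95 in MG-63 (-4.62 ± 0.31 SE, adjusted p = 3.94e-05). SOX9, the master factor of cartilage, had 8.34 and 8.28 in Saos-2 against 5.56 and 5.76 in MG-63 (-2.65 ± 0.29 SE, adjusted p = 0.000394).

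There were 5 factors called higher in MG-63. PITX1, a homeobox factor of the hind limb, had 12.77 and 13.3 in MG-63 against 7.16 and 8.02 in Saos-2 (5.45 ± 0.27 SE, adjusted p = 1.04e-05). ZNF521, a zinc finger protein known to bind RUNX2 and hold it back, had 9.03 and 8.61 in MG-63 against 4.45 and 5.04 in Saos-2 (4.08 ± 0.34 SE, adjusted p = 0.000107). TWIST2, another inhibitor of RUNX2, had 9.38 and 8.23 in MG-63 against 5.85 and 5.63 in Saos-2 (3.07 ± 0.33 SE, adjusted p = 0.000386). None of these 3 overlapped between the lines. ATF4, the stress factor that also serves late osteoblasts, had 15.39 and 15.36 in MG-63 against 12.09 and 12.97 in Saos-2 (2.85 ± 0.26 SE, adjusted p = 0.000178), and ALX1, a homeobox factor of the face, was higher by 1.15. TWIST1, the closest relative of TWIST2, had 5.73 and 6.56 in Saos-2 against 5.77 and 5.66 in MG-63 and was not called (adjusted p = 0.42).

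The bone matrix and mineralization genes split rather than moving to one side: of 31 measured, 11 were called higher in Saos-2 and 10 higher in MG-63 (6 to 9 and 8 to 9 with an array left out), with a median of 0.09. The members called higher in Saos-2 included ALPL and IBSP and the 5 that follow. IFITM5 (BRIL), a membrane protein of mineralizing osteoblasts, had 11.6 and 9.5 in Saos-2 against 4.6 and 4.4 in MG-63 (-6.05 ± 0.45 SE, adjusted p = 6.21e-05). PHOSPHO1, a phosphatase of matrix vesicles, had 7.98 and 5.91 in Saos-2 against 4.02 and 4.87 in MG-63 (-2.5 ± 0.6 SE, adjusted p = 0.0187). ENPP1, which makes pyrophosphate, had 10.55 and 10.27 in Saos-2 against 6.57 and 6.48 in MG-63 (-3.89 ± 0.28 SE, adjusted p = 5.68e-05). The Saos-2 arrays of IFITM5 and PHOSPHO1 lay well apart, with sh-NC above. BMP1, the proteinase that trims procollagens, had 10.79 and 10.87 in Saos-2 against 7.09 and 6.8 in MG-63 (-3.89 ± 0.29 SE, adjusted p = 5.94e-05). LUM (lumican), a small proteoglycan on collagen fibrils, was near the top of the scale in Saos-2, at 19.55 and 19.62 in Saos-2 against 10.92 and 11.74 in MG-63 (-8.26 ± 0.22 SE, adjusted p = 1.17e-06). PHOSPHO1 lost its call without MG-63 sh-NC (adjusted p = 0.257), MG-63 sh-circ_0000073 (adjusted p = 0.139) or Saos-2 sh-NC (adjusted p = 0.124).

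Higher in MG-63 were other small proteoglycans and matrix proteins. BGN (biglycan) had 16.93 and 16.76 in MG-63 against 2.99 and 3.38 in Saos-2 (13.66 ± 0.29 SE, adjusted p = 6.43e-07). DCN (decorin) had 11.65 and 12.36 in MG-63 against 7.62 and 7.18 in Saos-2 (4.61 ± 0.34 SE, adjusted p = 6.28e-05), so that 3 proteoglycans of the same family pointed in different directions. SPOCK1 (testican) had 16.36 and 16.18 in MG-63 against 9 and 9.69 in Saos-2 (6.93 ± 0.27 SE, adjusted p = 4.1e-06). PDPN (podoplanin), a surface protein of early osteocytes and of activated fibroblasts, had 13.44 and 13.96 in MG-63 against 4.05 and 4.86 in Saos-2 (9.25 ± 0.28 SE, adjusted p = 1.77e-06). SPARC (osteonectin) was abundant in both, at 16.75 and 16.99 in MG-63 against 14.9 and 15.37 in Saos-2 (1.74 ± 0.17 SE, adjusted p = 0.00025). SPP1 (osteopontin) at 4.05 and 3.59 in MG-63 against 3.34 and 3.84 in Saos-2, and DMP1 at 4.56 and 4.56 in MG-63 against 4.12 and 3.84 in Saos-2, both typical of mineralized bone, lay at background on all 4 arrays, as did the osteocyte gene SOST at 3.97 and 3.91 in MG-63 against 3.79 and 3.77 in Saos-2.

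**Figure D2:**
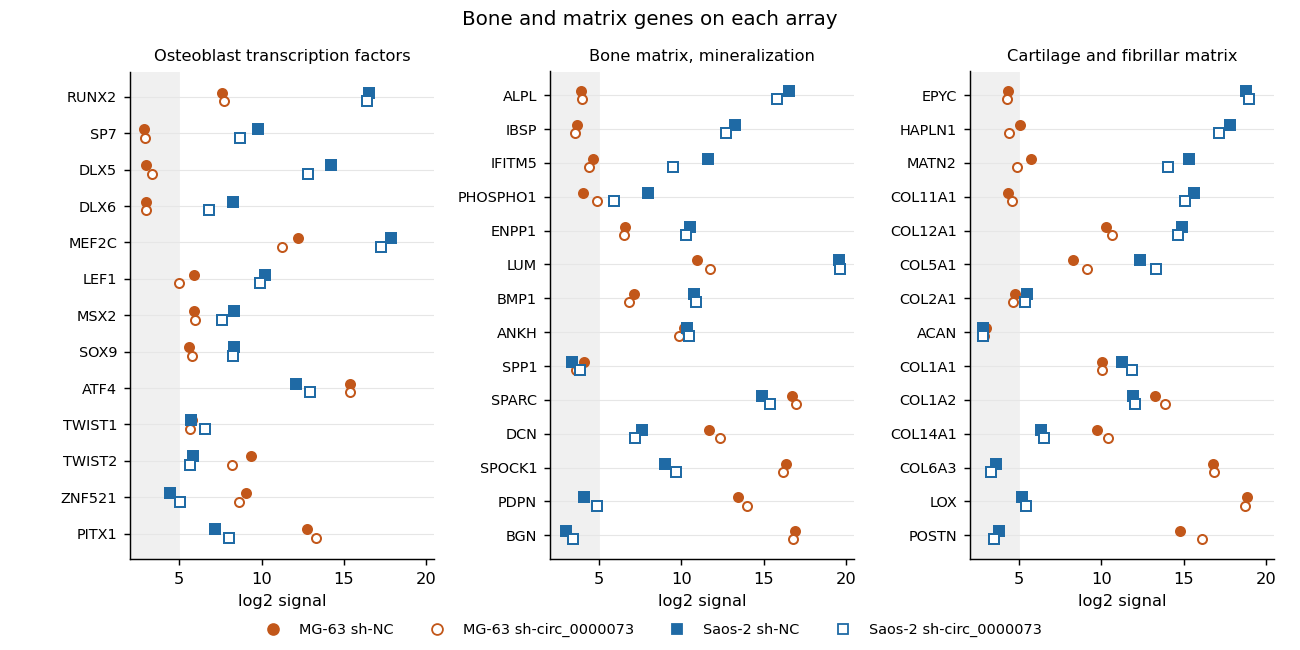
Log2 signal of each gene on each of the 4 arrays, with circles for MG-63, squares for Saos-2, filled symbols for sh-NC and open symbols for sh-circ_0000073. The grey band marks signals under 5, about the level of the olfactory receptor genes. RUNX2, SP7, DLX5, ALPL, IBSP and EPYC are far to the right in Saos-2, whereas BGN, COL6A3, LOX and POSTN are far to the right in MG-63.

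Saos-2 also carried a few cartilage genes at very high level, without the genes that define cartilage. This list, like those of interferon-stimulated genes, interferon signalling and smooth muscle, was drawn up after the values were seen. Its share called higher in Saos-2 was 21.4%, against 27% of expressed genes and 12.1% of all genes. Of 28 cartilage matrix genes, 6 were called higher in Saos-2 and 0 higher in MG-63 (5 to 6 and 0 to 1 with an array left out). EPYC (epiphycan), a small proteoglycan of growth cartilage, had 18.79 and 18.98 in Saos-2 against 4.34 and 4.28 in MG-63, 22380-fold with sh-NC and 26620-fold with sh-circ_0000073 higher in Saos-2 and the largest alike difference of all named genes. HAPLN1, the link protein that ties aggrecan to hyaluronan, had 17.85 and 17.13 in Saos-2 against 5.05 and 4.4 in MG-63. COL11A1, a minor fibrillar collagen, had 15.63 and 15.07 in Saos-2 against 4.3 and 4.55 in MG-63. PANX3, a channel of osteoblasts and growing chondrocytes, had 15.3 and 13.28 in Saos-2 against 4.02 and 3.84 in MG-63. Against this, COL2A1, the main collagen of cartilage, had 5.49 and 5.33 in Saos-2 against 4.77 and 4.65 in MG-63 and aggrecan, ACAN, 3 and 2.89 in MG-63 against 2.78 and 2.83 in Saos-2. COL10A1 of growth plate cartilage, at 3.94 and 3.9 in Saos-2 against 3.69 and 3.43 in MG-63, was equally low, so neither line showed the full cartilage set.

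Of the 29 collagen genes measured, 7 were called in each direction (3 to 5 and 4 to 5 with an array left out), a share of 24.1% each. The shares were 30.7% and 27% over expressed genes and 14.2% and 12.1% over all genes. COL6A3, a chain of the beaded collagen VI, had 16.8 and 16.85 in MG-63 against 3.6 and 3.27 in Saos-2 (13.39 ± 0.27 SE, adjusted p = 6.19e-07). Its partner chain COL6A1 had 15.19 and 15.49 in MG-63 against 15.39 and 15.1 in Saos-2 and was not called (adjusted p = 0.812). The chains of collagen I, the main protein of bone, pointed in different directions, with COL1A1 at 11.23 and 11.84 in Saos-2 against 10.03 and 10.03 in MG-63 (-1.51 ± 0.28 SE, adjusted p = 0.00571) and COL1A2 at 13.26 and 13.88 in MG-63 against 11.9 and 12.07 in Saos-2 (1.59 ± 0.24 SE, adjusted p = 0.00205). A further COL1A1 probe set had 8.14 and 9.48 in MG-63 against 8.15 and 8.36 in Saos-2, so it did not repeat the direction of the first. Among the rest, COL12A1 with 14.9 and 14.66 in Saos-2 against 10.29 and 10.62 in MG-63 and COL5A1 with 12.35 and 13.31 in Saos-2 against 8.28 and 9.14 in MG-63 were higher in Saos-2 (adjusted p = 1.99e-05 and 2.83e-05), and COL14A1 with 9.71 and 10.41 in MG-63 against 6.31 and 6.54 in Saos-2 was higher in MG-63 (adjusted p = 9.45e-05). COL1A1 lost its call without MG-63 sh-NC (adjusted p = 0.107), MG-63 sh-circ_0000073 (adjusted p = 0.106) or Saos-2 sh-circ_0000073 (adjusted p = 0.107). COL1A2 lost its call without MG-63 sh-circ_0000073 (adjusted p = 0.0829), Saos-2 sh-NC (adjusted p = 0.0827) or Saos-2 sh-circ_0000073 (adjusted p = 0.0613).

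The fibroblast and mesenchymal markers were mostly higher in MG-63. Of 39 measured, 24 (61.5%) were called higher in MG-63 and 10 in Saos-2. The median was 1.97. LOX, the lysyl oxidase that cross-links collagen, had 18.85 and 18.74 in MG-63 against 5.18 and 5.43 in Saos-2 (13.49 ± 0.25 SE, adjusted p = 5.43e-07). POSTN (periostin) had 14.78 and 16.11 in MG-63 against 3.78 and 3.5 in Saos-2 (11.81 ± 0.4 SE, adjusted p = 2.32e-06). TCF21, a factor of fibroblast precursors, had 13.95 and 13.73 in MG-63 against 4.5 and 4.89 in Saos-2 (9.15 ± 0.3 SE, adjusted p = 2.08e-06). All 3 lay under 6 on both Saos-2 arrays. NT5E (CD73) had 18.54 and 17.64 in MG-63 against 11.3 and 10.51 in Saos-2 (7.19 ± 0.19 SE, adjusted p = 1.17e-06). FBN1 (fibrillin) had 15.19 and 15.88 in MG-63 against 8.21 and 10.15 in Saos-2 (6.36 ± 0.33 SE, adjusted p = 1.19e-05). All 5 were higher on both MG-63 arrays than on either Saos-2 array, and NT5E and FBN1 were still expressed in Saos-2. Vimentin, VIM, the intermediate filament of mesenchymal cells, was expressed in both lines but higher in MG-63, at 18.6 and 18.58 in MG-63 against 13.32 and 13.77 in Saos-2 (5.05 ± 0.19 SE, adjusted p = 3.08e-06).

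The mesenchymal markers higher in Saos-2 were largely those of the contractile cytoskeleton. ACTA2, the smooth muscle actin of myofibroblasts, had 15.14 and 15.48 in Saos-2 against 8.85 and 9.42 in MG-63 (-6.18 ± 0.24 SE, adjusted p = 3.69e-06). TAGLN (transgelin) had 11.45 and 13.3 in Saos-2 against 4.06 and 4.87 in MG-63 (-7.91 ± 0.34 SE, adjusted p = 6.05e-06). CNN1 (calponin) had 11.14 and 13.24 in Saos-2 against 5.31 and 4.97 in MG-63 (-7.05 ± 0.53 SE, adjusted p = 6.42e-05). For TAGLN and CNN1 the sh-circ_0000073 array of Saos-2 lay above the sh-NC array. MYL9, a myosin light chain, had 14.71 and 14.93 in Saos-2 against 7.66 and 8.33 in MG-63 (-6.83 ± 0.26 SE, adjusted p = 3.57e-06). In a list of 20 smooth muscle contractile genes, 10 were called higher in Saos-2 and 3 in MG-63 (8 to 9 and 0 to 2 with an array left out), the latter being TPM2 and TPM4 (tropomyosins) and SMTN (smoothelin). MYOCD, the coactivator that drives smooth muscle genes, had 6.79 and 8.56 in Saos-2 against 3.79 and 3.67 in MG-63 (-3.95 ± 0.44 SE, adjusted p = 0.00047), while MYH11, the smooth muscle myosin that defines mature cells, was at background with 3.59 and 3.91 in MG-63 against 3.55 and 3.61 in Saos-2. CDH11, the cadherin of osteoblasts, was also higher in Saos-2, at 12.26 and 11.52 in Saos-2 against 6.78 and 6.68 in MG-63 (-5.16 ± 0.3 SE, adjusted p = 1.98e-05), and so was TNC (tenascin) at 15.23 and 15.61 in Saos-2 against 8.96 and 9.5 in MG-63 (-6.19 ± 0.23 SE, adjusted p = 3.46e-06). MYOCD lost its call without MG-63 sh-NC (adjusted p = 0.0572) or MG-63 sh-circ_0000073 (adjusted p = 0.061).

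The genes next to RB1 on chromosome 13 did not share its difference, but several further along did. MED4, a Mediator subunit before RB1, had 10.59 and 10.17 in MG-63 against 10.4 and 10.28 in Saos-2 (adjusted p = 0.944). LPAR6, a lysophosphatidic acid receptor whose gene lies within an intron of RB1, was higher in Saos-2, at 5.92 and 5.98 in Saos-2 against 3.81 and 4.43 in MG-63 (adjusted p = 0.00235). Beyond it FNDC3A had 12.39 and 13.18 in MG-63 against 10.08 and 10.76 in Saos-2 (adjusted p = 0.000315), CAB39L, part of the complex around the kinase LKB1, 8.23 and 8.31 in MG-63 against 4.51 and 3.81 in Saos-2 (adjusted p = 7.2e-05), and KPNA3, a nuclear import factor, 10.34 and 10.18 in MG-63 against 7.73 and 7.57 in Saos-2 (adjusted p = 0.000355), all higher in MG-63. Of the 16 coding genes nearest to RB1, itself included, 7 were called higher in MG-63 and 2 higher in Saos-2. Near CDKN2A on chromosome 9, CDKN2B, the neighbouring kinase inhibitor, was low in both lines, at 4.47 and 5.12 in Saos-2 against 4.28 and 4.76 in MG-63 (adjusted p = 0.519). MTAP, the next gene, had 8.46 and 9.54 in Saos-2 against 7.53 and 7.88 in MG-63 (adjusted p = 0.0184, and 0.0566 without the hairpin block), and CDKN2B-AS1, the long noncoding RNA of the locus, had 8.64 and 8.51 in Saos-2 against 4.95 and 3.88 in MG-63 (-4.16 ± 0.33 SE, adjusted p = 8.55e-05). KLHL9, an adaptor of the ubiquitin system whose gene lies among the interferon alpha genes next to this locus, was higher in MG-63 at 15.11 and 15.2 in MG-63 against 9.4 and 9.87 in Saos-2 (adjusted p = 6.59e-06). FNDC3A lost its call without MG-63 sh-circ_0000073 (adjusted p = 0.0675) or Saos-2 sh-NC (adjusted p = 0.0576). MTAP lost its call without MG-63 sh-NC (adjusted p = 0.306), MG-63 sh-circ_0000073 (adjusted p = 0.195), Saos-2 sh-NC (adjusted p = 0.0516) or Saos-2 sh-circ_0000073 (adjusted p = 0.317).

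The E2F target genes had the largest share of members called higher in Saos-2 of all lists. Of 29 measured, 21 (72.4%) were called higher in Saos-2 and 0 higher in MG-63, and the median was -2.41. With each array left out in turn, 14 to 19 were called higher in Saos-2. Many of the largest members serve entry into S phase. CCNE2, a cyclin that drives S phase entry, had 13.54 and 11.73 in Saos-2 against 9.05 and 7.14 in MG-63 (-4.54 ± 0.26 SE, adjusted p = 1.99e-05). CCNE1 had 8.79 and 9.15 in Saos-2 against 5.04 and 6.05 in MG-63 (-3.43 ± 0.31 SE, adjusted p = 0.000154). CDC25A, the phosphatase that activates their kinase, had 8.44 and 8.63 in Saos-2 against 3.73 and 4.36 in MG-63 (-4.49 ± 0.29 SE, adjusted p = 3.41e-05). CCNE2 was lower on the sh-circ_0000073 array of each line, which left its line difference alike. PCNA, the sliding clamp of DNA polymerase, had 15.11 and 14.97 in Saos-2 against 10.68 and 10.69 in MG-63 (-4.36 ± 0.22 SE, adjusted p = 1.2e-05). Ribonucleotide reductase, which makes the building blocks of DNA, was higher in both of its subunits. RRM1 had 16.06 and 15.79 in Saos-2 against 12.59 and 12.19 in MG-63 (adjusted p = 1.84e-05), and RRM2 14.2 and 13.77 in Saos-2 against 9.12 and 10.94 in MG-63 (adjusted p = 0.000664). CCNE2 lost its call without MG-63 sh-circ_0000073 (adjusted p = 0.0761) or Saos-2 sh-NC (adjusted p = 0.0649). RRM2 lost its call without Saos-2 sh-NC (adjusted p = 0.053).

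Among the E2F factors, the atypical repressors E2F7, at 12.5 and 13.13 in Saos-2 against 7.93 and 8.32 in MG-63 (-4.69 ± 0.26 SE, adjusted p = 1.79e-05), and E2F8, at 10.35 and 9.8 in Saos-2 against 4.87 and 4.78 in MG-63 (-5.25 ± 0.3 SE, adjusted p = 1.78e-05), were higher in Saos-2. E2F3, an activator that is not in the list, was also higher there, at 10.58 and 10.81 in Saos-2 against 7.29 and 7.22 in MG-63. E2F1 had 5.79 and 6.13 in Saos-2 against 5.43 and 5.77 in MG-63 (adjusted p = 0.425). Some classical targets also failed the test, with CDC6, a loader of the replicative helicase, at 13.73 and 13.04 in Saos-2 against 13.11 and 13.18 in MG-63 (adjusted p = 0.584) and MCM3 at 12.74 and 12.85 in Saos-2 against 12.05 and 12.73 in MG-63 (adjusted p = 0.314), whereas the helicase subunit MCM5 had 10.27 and 10.92 in Saos-2 against 6.82 and 7.3 in MG-63 (-3.54 ± 0.28 SE, adjusted p = 8.42e-05).

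**Figure D3:**
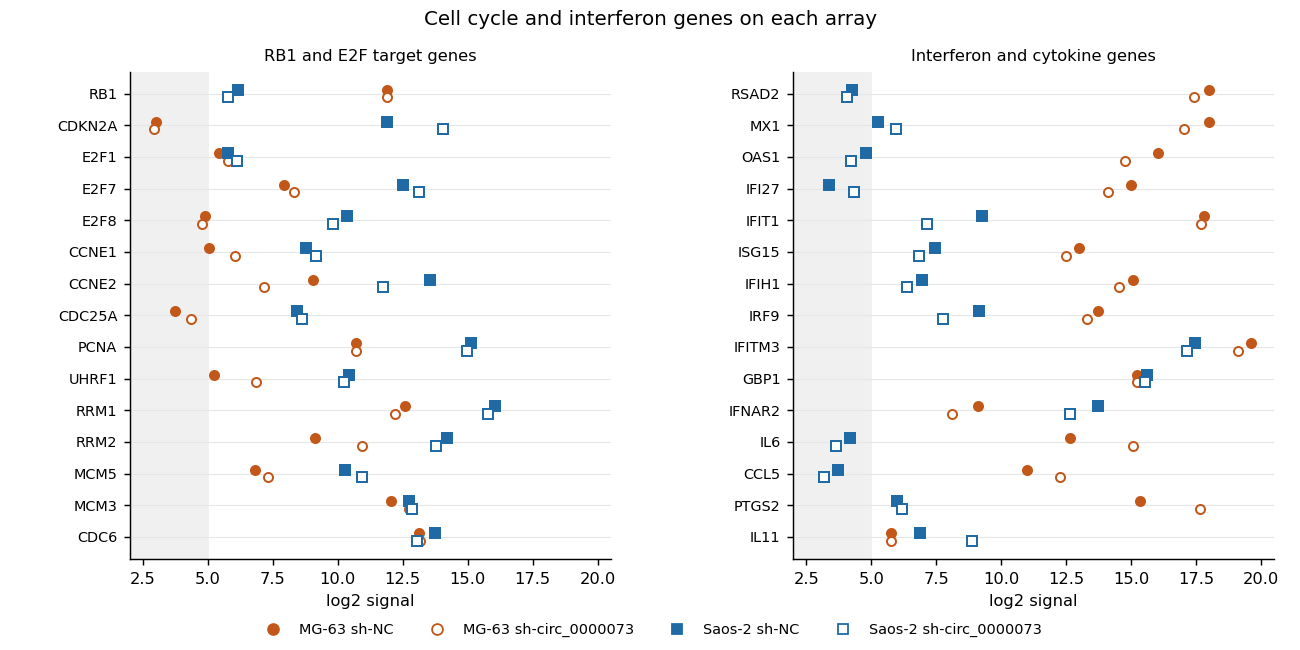
Log2 signal of each gene on each of the 4 arrays, with the symbols of the preceding dot plot and the grey band under a signal of 5. The E2F targets PCNA, CCNE2 and E2F8 lie further right in Saos-2, and the interferon-stimulated genes RSAD2, MX1 and OAS1 lie at 14 or above in MG-63 and under 6 in Saos-2.

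Interferon-stimulated genes had the largest share of called members of all lists. Cells that sense viral RNA, or that bind type I interferon, switch on these genes through the ISGF3 complex, which contains IRF9 and binds the interferon-stimulated response element. Of 47 measured, 45 (95.7%) were called higher in MG-63 and 0 higher in Saos-2, the median was 4.95, and with each array left out in turn 37 to 44 were called. The list was chosen after the values were seen, so this count describes it and is no independent evidence. RSAD2 (viperin), an antiviral enzyme, had 18.01 and 17.41 in MG-63 against 4.26 and 4.07 in Saos-2, 13780-fold with sh-NC and 10370-fold with sh-circ_0000073 higher in MG-63. MX1, an antiviral GTPase, had 17.99 and 17.03 in MG-63 against 5.27 and 5.94 in Saos-2. OAS1, which makes the activator of RNase L, had 16.04 and 14.75 in MG-63 against 4.78 and 4.23 in Saos-2. These 3 were near background in Saos-2. IFIT1, which binds foreign RNA ends, had 17.81 and 17.7 in MG-63 against 9.28 and 7.14 in Saos-2. ISG15, a ubiquitin-like modifier, had 12.99 and 12.49 in MG-63 against 7.47 and 6.82 in Saos-2.

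Some members were bright in both lines. IFITM3, a membrane protein that blocks virus fusion, had 19.61 and 19.12 in MG-63 against 17.46 and 17.17 in Saos-2. EIF2AK2 (PKR), the kinase that senses viral RNA, had 16.96 and 15.85 in MG-63 against 14.7 and 13.85 in Saos-2. PARP14 had 17.04 and 15.86 in MG-63 against 13.26 and 13.15 in Saos-2. GBP1, a guanylate-binding protein better known as a target of interferon gamma, was high on all arrays, at 15.6 and 15.55 in Saos-2 against 15.24 and 15.21 in MG-63 (adjusted p = 0.215, and 0.0156 after quantile normalization), and UBA7, the activating enzyme for ISG15, was at background, at 4.44 and 3.4 in MG-63 against 3.72 and 4.07 in Saos-2. The sensors IFIH1 (MDA5), at 15.07 and 14.53 in MG-63 against 6.97 and 6.39 in Saos-2 (8.12 ± 0.26 SE, adjusted p = 1.99e-06), and RIGI (RIG-I), at 13.65 and 12.68 in MG-63 against 8.73 and 7.71 in Saos-2 (4.95 ± 0.26 SE, adjusted p = 1.28e-05), were higher in MG-63. Several members were lower with sh-circ_0000073 than with sh-NC in MG-63, for example MX2 at 11.8 and 9.18 in MG-63 against 3.71 and 4 in Saos-2. All 45 called members met the alike rule, as did 9.74% of all genes in favour of MG-63. Since the list was drawn up with the values in view, this too only describes it.

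The receptor and signalling genes of type I interferon did not follow their targets. Of 15 measured, 3 were called higher in MG-63 and 4 higher in Saos-2. IFNAR2, the high-affinity receptor chain, was higher in Saos-2 at 13.72 and 12.65 in Saos-2 against 9.12 and 8.11 in MG-63 (-4.57 ± 0.26 SE, adjusted p = 1.7e-05), and IFNAR1 had 11.95 and 11.88 in Saos-2 against 11.44 and 11.34 in MG-63 (adjusted p = 0.177). STING1, the adaptor of cytosolic DNA sensing, was higher in MG-63 at 13.01 and 11.67 in MG-63 against 8.62 and 7.2 in Saos-2 (4.43 ± 0.27 SE, adjusted p = 2.35e-05). IFNB1, the interferon beta gene, had 5.88 and 9.16 in MG-63 against 3.56 and 3.54 in Saos-2 (3.97 ± 0.66 SE, adjusted p = 0.00342), with the sh-circ_0000073 array of MG-63 well above the sh-NC array. IRF9, the DNA-binding part of ISGF3, had 13.72 and 13.31 in MG-63 against 9.14 and 7.77 in Saos-2 (5.06 ± 0.31 SE, adjusted p = 2.54e-05). IFNB1 lost its call without Saos-2 sh-NC (adjusted p = 0.155) or Saos-2 sh-circ_0000073 (adjusted p = 0.154).

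The promoters of the interferon-stimulated genes are shown because the element that binds IRF9 and its relatives can be read in them. The 250 bases before the annotated start were taken from RefSeq (GRCh38.p14) and searched on both strands for GAAANNGAAA, in which N is any base. It was found in 20 of 36 promoters of the list that the table holds (55.6%) and in 2.74% of 14286 coding genes. Among coding genes alike and higher in MG-63 the share was 3.61%, and among those higher in Saos-2 2.12%. The letters were not found in the windows of RSAD2, MX1 and OAS1. Below are 3 promoters, chosen among those that hold them, of genes far higher in MG-63, and that of GBP1, which was high in both lines. Capitals mark matches to GAAANNGAAA or its reverse complement, and each sequence is read 5′ to 3′ on the gene's own strand.
IFI27, at chr14:94110486-94110735 on the plus strand: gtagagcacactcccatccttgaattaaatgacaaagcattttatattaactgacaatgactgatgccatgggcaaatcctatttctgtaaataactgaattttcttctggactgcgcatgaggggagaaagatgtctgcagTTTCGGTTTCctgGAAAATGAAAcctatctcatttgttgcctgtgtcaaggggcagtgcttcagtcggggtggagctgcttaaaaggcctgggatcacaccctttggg
IFIT1, at chr10:89392373-89392622 on the plus strand: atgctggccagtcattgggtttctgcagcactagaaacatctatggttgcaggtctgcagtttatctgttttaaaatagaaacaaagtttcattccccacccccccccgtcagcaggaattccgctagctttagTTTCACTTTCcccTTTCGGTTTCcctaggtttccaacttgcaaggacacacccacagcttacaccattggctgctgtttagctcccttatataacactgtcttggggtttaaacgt
BST2, at chr19:17405631-17405880 on the minus strand: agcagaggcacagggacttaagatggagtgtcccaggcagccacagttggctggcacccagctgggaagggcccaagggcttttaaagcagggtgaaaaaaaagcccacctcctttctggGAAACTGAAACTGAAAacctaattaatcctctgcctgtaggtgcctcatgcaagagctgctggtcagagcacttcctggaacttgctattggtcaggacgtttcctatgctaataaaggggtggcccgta
GBP1, at chr1:89065209-89065458 on the minus strand: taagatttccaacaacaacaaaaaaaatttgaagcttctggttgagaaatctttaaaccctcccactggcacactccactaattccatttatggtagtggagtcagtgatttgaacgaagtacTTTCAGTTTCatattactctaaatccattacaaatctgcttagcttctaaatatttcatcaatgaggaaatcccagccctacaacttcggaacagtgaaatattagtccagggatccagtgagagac

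IFI27, a small mitochondrial protein, had 14.99 and 14.12 in MG-63 against 3.39 and 4.34 in Saos-2. BST2 (tetherin), which holds budding virions on the cell, had 12.16 and 11.38 in MG-63 against 2.77 and 2.89 in Saos-2. IFI27, IFIT1 and BST2 each held 2 matches, overlapping in BST2, and GBP1 held 1. A match describes the letters of the window and was not tested as a binding site. The line difference of GBP1 was -0.35 although its promoter holds the letters, so the match and the line difference did not go together in every gene.

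The list of antigen presentation held genes of MHC class I and class II. Of 25 measured, 8 were called higher in MG-63 and 2 in Saos-2. These are 32% and 8%, against 30.7% and 27% of expressed genes and 14.2% and 12.1% of all genes. Only 14 of the 25 reached a log2 signal of at least 6 on both arrays of a line, so neither comparison matches the list fully. TAP1, the peptide transporter, had 13.97 and 12.85 in MG-63 against 6.91 and 7.17 in Saos-2 (6.37 ± 0.37 SE, adjusted p = 1.93e-05). PSMB9, an immunoproteasome subunit, had 16.19 and 14.84 in MG-63 against 11.63 and 10.96 in Saos-2 (4.22 ± 0.25 SE, adjusted p = 2.09e-05). TAPBP (tapasin) had 14.04 and 12.8 in MG-63 against 10.27 and 9.22 in Saos-2 (3.68 ± 0.25 SE, adjusted p = 3.93e-05). The heavy chains HLA-B, at 13.72 and 13.41 in MG-63 against 13.46 and 13.34 in Saos-2, and HLA-C, at 14.43 and 14.11 in MG-63 against 13.89 and 14.04 in Saos-2, were not called (adjusted p = 0.662 and 0.388). The HLA genes are near-identical in parts and their probes may share signal.

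The cytokines and chemokines were called almost wholly in favour of MG-63, 18 of 29 (62.1%) against 1 in Saos-2 (14 to 17 and 0 to 1 with an array left out), with a median of 2.54. IL6, an inflammatory cytokine that also drives bone resorption, had 12.66 and 15.08 in MG-63 against 4.17 and 3.66 in Saos-2 (9.96 ± 0.6 SE, adjusted p = 2.48e-05). CCL26 (eotaxin-3) had 14.79 and 15.11 in MG-63 against 3.93 and 3.89 in Saos-2 (11.04 ± 0.28 SE, adjusted p = 1.07e-06). CCL5 had 10.99 and 12.26 in MG-63 against 3.73 and 3.17 in Saos-2 (8.18 ± 0.44 SE, adjusted p = 1.46e-05). These 3 were at background on both Saos-2 arrays. IL1B had 11.85 and 12.02 in MG-63 against 3.59 and 3.48 in Saos-2 (8.4 ± 0.29 SE, adjusted p = 2.36e-06). PTGS2 (cyclooxygenase-2) had 15.34 and 17.64 in MG-63 against 6 and 6.19 in Saos-2 (10.4 ± 0.46 SE, adjusted p = 6.96e-06). CSF1, the growth factor of macrophages and osteoclasts, had 16.63 and 16.22 in MG-63 against 8.99 and 9.11 in Saos-2 (7.38 ± 0.25 SE, adjusted p = 2.15e-06). The exception was IL11, a relative of IL6, with 6.88 and 8.87 in Saos-2 against 5.76 and 5.76 in MG-63 (-2.12 ± 0.46 SE, adjusted p = 0.0121). IL1B was at background in Saos-2 as well, and within MG-63 the sh-circ_0000073 array lay above the sh-NC array for IL6 and PTGS2. IL11 lost its call without MG-63 sh-NC (adjusted p = 0.238), MG-63 sh-circ_0000073 (adjusted p = 0.231) or Saos-2 sh-circ_0000073 (adjusted p = 0.113).

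**Figure D4:**
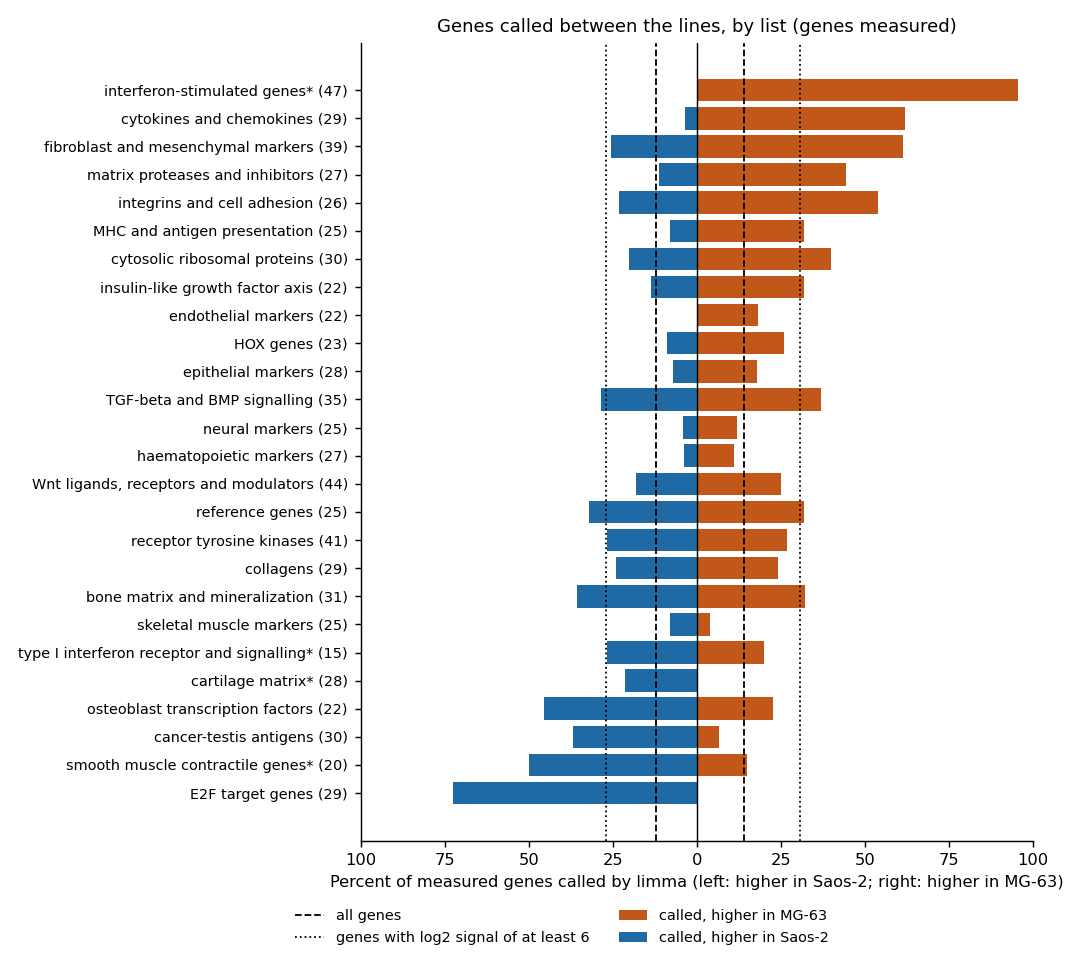
Percent of the measured genes of each list that limma called higher in MG-63 (orange, to the right) or higher in Saos-2 (blue, to the left), with the number of genes measured in parentheses. Dashed lines give the shares over all genes, dotted lines those over genes with a log2 signal of at least 6, and an asterisk marks the 4 lists drawn up after the values were seen. Interferon-stimulated genes and E2F targets lie at the ends, and reference genes have equal shares.

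The receptor tyrosine kinases differed in both directions, with 11 of 41 called in each direction (4 to 5 and 9 to 10 with an array left out). That is 26.8% each way, against 30.7% and 27% of expressed genes and 14.2% and 12.1% of all genes. FGFR1, a receptor of fibroblast growth factors, was higher in MG-63 at 12.19 and 12.18 in MG-63 against 7.26 and 7.98 in Saos-2 (4.57 ± 0.3 SE, adjusted p = 3.53e-05). Its relative FGFR2 was higher in Saos-2 at 11.18 and 10.34 in Saos-2 against 5.02 and 5.68 in MG-63 (-5.41 ± 0.39 SE, adjusted p = 5.71e-05). EGFR had 10.07 and 10.66 in MG-63 against 7.31 and 6.26 in Saos-2 (3.58 ± 0.41 SE, adjusted p = 0.00052). AXL had 13.91 and 13.49 in MG-63 against 9.82 and 11.68 in Saos-2 (2.95 ± 0.48 SE, adjusted p = 0.00294), both higher in MG-63. KIT, the stem cell factor receptor, had 11.14 and 11.81 in Saos-2 against 6.62 and 6.35 in MG-63 (-4.99 ± 0.33 SE, adjusted p = 3.49e-05). EPHA3 had 10.33 and 10.04 in Saos-2 against 4.14 and 4.11 in MG-63 (-6.06 ± 0.29 SE, adjusted p = 8.74e-06). ROS1 had 7.67 and 11.66 in Saos-2 against 3.99 and 3.31 in MG-63 (-6.02 ± 0.9 SE, adjusted p = 0.00198), all higher in Saos-2. IGF1R, the receptor of insulin-like growth factors, had 13.22 and 13.49 in MG-63 against 13.07 and 13.27 in Saos-2 (adjusted p = 0.62). Of the insulin-like growth factor list that follows, 31.8% were called higher in MG-63 and 13.6% in Saos-2, beside the same shares over all lists' background. In the insulin-like growth factor axis, 7 of 22 genes were called higher in MG-63 and 3 in Saos-2 (4 to 7 and 1 to 2 with an array left out), with the binding protein IGFBP3 furthest apart at 16.45 and 16.54 in MG-63 against 7.48 and 9.23 in Saos-2 (8.14 ± 0.38 SE, adjusted p = 8.55e-06). AXL lost its call without MG-63 sh-NC (adjusted p = 0.137) or MG-63 sh-circ_0000073 (adjusted p = 0.102). ROS1 lost its call without MG-63 sh-NC (adjusted p = 0.105) or MG-63 sh-circ_0000073 (adjusted p = 0.129).

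Wnt signals promote osteoblast formation, and genes of this list differed in both directions. Of 44 Wnt genes, 11 (25%) were called higher in MG-63 and 8 (18.2%) in Saos-2 (7 to 11 and 4 to 6 with an array left out). The shares were 30.7% and 27% over expressed genes and 14.2% and 12.1% over all genes. The median of the list was 0.06. DKK1, a secreted inhibitor of Wnt receptors, had 17.18 and 17.53 in MG-63 against 9.79 and 9.35 in Saos-2 (7.79 ± 0.26 SE, adjusted p = 2.14e-06). SFRP1, which binds Wnt proteins, had 10.16 and 10.61 in MG-63 against 3.62 and 3.47 in Saos-2 (6.84 ± 0.3 SE, adjusted p = 6.96e-06). DKK3 had 14.05 and 14.3 in MG-63 against 9.24 and 10.07 in Saos-2 (4.52 ± 0.26 SE, adjusted p = 1.99e-05). These inhibitors did not overlap between the lines. They are among the members furthest apart, and other Wnt inhibitors of the list are not described here. Higher in Saos-2 were WNT11 at 9.62 and 8.31 in Saos-2 against 3.73 and 3.59 in MG-63 (-5.31 ± 0.35 SE, adjusted p = 3.74e-05), RSPO2, which strengthens Wnt signals, at 11.75 and 11.08 in Saos-2 against 6.01 and 7.12 in MG-63 (-4.85 ± 0.43 SE, adjusted p = 0.000142) and its receptor LGR4 at 10.48 and 11.72 in Saos-2 against 7.11 and 7.37 in MG-63 (-3.86 ± 0.33 SE, adjusted p = 0.00012). RSPO3, of the same family as RSPO2, was higher in MG-63, at 9 and 11.82 in MG-63 against 3.7 and 3.99 in Saos-2 (6.57 ± 0.54 SE, adjusted p = 0.000107), and AXIN2, a target of beta-catenin, had 8.67 and 9.99 in MG-63 against 6.32 and 6.11 in Saos-2 (3.12 ± 0.4 SE, adjusted p = 0.000898). AXIN2 lost its call without Saos-2 sh-circ_0000073 (adjusted p = 0.0503).

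In the TGF-beta and BMP list, 13 of 35 genes were called higher in MG-63 and 10 in Saos-2. These are 37.1% and 28.6%, against 30.7% and 27% of expressed genes and 14.2% and 12.1% of all genes. BMP4, a bone-inducing ligand, had 17.46 and 17.61 in Saos-2 against 6.56 and 7.04 in MG-63 (-10.74 ± 0.24 SE, adjusted p = 7.92e-07). The ID proteins, targets of BMP signals that block helix-loop-helix factors, were split. ID1 had 7.82 and 8.18 in Saos-2 against 4.12 and 4.72 in MG-63 (adjusted p = 8.48e-05) and ID3 13.31 and 12.94 in Saos-2 against 6.09 and 5.94 in MG-63 (adjusted p = 3.7e-06), whereas ID2 had 15.03 and 14.65 in MG-63 against 11.16 and 11.78 in Saos-2 (adjusted p = 0.000116). INHBA, a subunit of activin, was higher in Saos-2 at 11.88 and 12.59 in Saos-2 against 5.03 and 5.5 in MG-63 (-6.97 ± 0.28 SE, adjusted p = 4.54e-06), and FST (follistatin), which binds activin, higher in MG-63 at 13.91 and 14.98 in MG-63 against 7.86 and 7.22 in Saos-2 (6.91 ± 0.4 SE, adjusted p = 2.08e-05). TGFBI, a matrix protein induced by TGF-beta, had 18.26 and 18.04 in MG-63 against 7.57 and 10.12 in Saos-2 (9.31 ± 0.55 SE, adjusted p = 2.2e-05). The receptors TGFBR1, at 13.86 and 14.87 in MG-63 against 11.17 and 11.65 in Saos-2, and TGFBR2, at 12.24 and 11.35 in MG-63 against 10.66 and 9.77 in Saos-2, were both higher in MG-63 (adjusted p = 0.000102 and 0.00276). TGFBR2 lost its call without MG-63 sh-NC (adjusted p = 0.251), MG-63 sh-circ_0000073 (adjusted p = 0.0855), Saos-2 sh-NC (adjusted p = 0.0725) or Saos-2 sh-circ_0000073 (adjusted p = 0.238).

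Adhesion genes and proteases leaned to MG-63. Of 26 integrins and adhesion genes, 14 were called higher in MG-63 and 6 in Saos-2 (7 to 8 and 2 to 4 with an array left out), and of 27 matrix proteases and inhibitors 12 and 3 (7 to 8 and 0 to 2 with an array left out). CD44, the hyaluronan receptor, had 15.58 and 15.91 in MG-63 against 7.77 and 8.01 in Saos-2 (7.86 ± 0.24 SE, adjusted p = 1.8e-06), the collagen receptor subunit ITGA2 10.15 and 11.41 in MG-63 against 4.08 and 3.88 in Saos-2 (6.8 ± 0.39 SE, adjusted p = 1.92e-05) and the kidney cadherin CDH6 11.73 and 12.58 in MG-63 against 4.05 and 4.14 in Saos-2 (8.06 ± 0.31 SE, adjusted p = 3.88e-06). ITGA4, which pairs with ITGB1 to bind fibronectin and VCAM1, was the member most in favour of Saos-2, at 13.25 and 12.42 in Saos-2 against 5.68 and 6.82 in MG-63 (-6.59 ± 0.45 SE, adjusted p = 4.37e-05). MMP2, a gelatinase, was abundant in both lines but higher in MG-63, at 18.43 and 18.31 in MG-63 against 15.33 and 15.83 in Saos-2 (2.79 ± 0.19 SE, adjusted p = 3.97e-05), and MMP14, the membrane protease that activates it, was higher in Saos-2, at 13.57 and 14.38 in Saos-2 against 12.84 and 12.52 in MG-63 (-1.3 ± 0.3 SE, adjusted p = 0.0154). MMP9 was at background on all arrays, at 3.7 and 3.76 in MG-63 against 3.66 and 3.68 in Saos-2. MMP3 had 8.26 and 13.35 in MG-63 against 5.06 and 4.98 in Saos-2 (5.79 ± 0.99 SE, adjusted p = 0.00381), and its arrays within MG-63 lay further apart than those of the other proteases. MMP14 lost its call without MG-63 sh-NC (adjusted p = 0.131), MG-63 sh-circ_0000073 (adjusted p = 0.199) or Saos-2 sh-circ_0000073 (adjusted p = 0.174). MMP3 lost its call without Saos-2 sh-NC (adjusted p = 0.169) or Saos-2 sh-circ_0000073 (adjusted p = 0.171).

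HOX genes record position along the body axis, and HOXB9 was the member furthest apart. It had 8.96 and 8.63 in MG-63 against 3.33 and 3.59 in Saos-2 (5.34 ± 0.3 SE, adjusted p = 1.78e-05), while HOXB8 beside it was at background on all arrays with 2.89 and 2.87 in MG-63 against 2.79 and 2.87 in Saos-2. HOXC10, of hind limb and lower body, was expressed in both lines, at 10.58 and 10.75 in MG-63 against 8.24 and 9.04 in Saos-2 (2.03 ± 0.29 SE, adjusted p = 0.0017). In all, 6 of 23 HOX genes were called higher in MG-63 and 2 in Saos-2 (2 to 4 and 1 to 2 with an array left out), and most of the HOXA cluster was not analysed here. HOXC10 lost its call without MG-63 sh-NC (adjusted p = 0.0719), MG-63 sh-circ_0000073 (adjusted p = 0.0852) or Saos-2 sh-NC (adjusted p = 0.0581).

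The cancer-testis antigens, germ cell genes that tumours often express, leaned to Saos-2, with 11 of 30 called against 2 in MG-63 (6 to 9 and 1 with an array left out). MAGEC2 had 12.76 and 12.18 in Saos-2 against 5.04 and 4.8 in MG-63 (-7.55 ± 0.29 SE, adjusted p = 3.46e-06). MAGEA3 had 12.02 and 12.04 in Saos-2 against 4.37 and 4.59 in MG-63. MAGEA6, a near-identical copy of MAGEA3 whose probes may share its signal, had 12.38 and 12.25 in Saos-2 against 4.64 and 4.25 in MG-63. The members called higher in MG-63 were PRAME, with 10.69 and 10.84 in MG-63 against 4.68 and 5.52 in Saos-2 (5.67 ± 0.31 SE, adjusted p = 1.55e-05), and PASD1, by 0.77.

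Most markers of other cell types were at or near background in both lines. A log2 signal of at least 6 on both arrays of a line was reached by 9 of 28 epithelial markers. It was reached by 1 of 27 haematopoietic, 4 of 22 endothelial, 4 of 25 skeletal muscle and 2 of 25 neural markers. Called higher in MG-63, and after it in Saos-2, were 5 and 2 of 28 epithelial, 3 and 1 of 27 haematopoietic, 4 and 0 of 22 endothelial, 1 and 2 of 25 skeletal muscle and 3 and 1 of 25 neural markers, and with an array left out these counts were 1 to 4 and 2, 1 to 2 and 0 to 1, 3 to 4 and 0, 0 and 1 to 2 and 0 to 3 and 1. PTPRC (CD45) of blood cells had 4.12 and 4.3 in Saos-2 against 3.84 and 4.2 in MG-63, PECAM1 of endothelium 3.11 and 3.18 in MG-63 against 3.12 and 3.13 in Saos-2, CDH1 of epithelium 2.99 and 3.57 in Saos-2 against 3.18 and 2.99 in MG-63 and MYOD1 of muscle 2.57 and 2.41 in Saos-2 against 2.47 and 2.49 in MG-63. Summed over each list on the linear scale, the signal of the 27 haematopoietic markers ranged from 487.6 to 881.8 over the 4 arrays and that of the 25 neural markers from 576.8 to 16460, the latter led by INA (internexin), with 13.56 and 13.96 in Saos-2 against 4.94 and 3.98 in MG-63 (-9.3 ± 0.37 SE, adjusted p = 4.26e-06). The sum of the 28 epithelial markers ranged from 2536 to 10160. That of the 22 endothelial markers was 13630 and 14560 in MG-63 against 1614 and 1644 in Saos-2. Some epithelial surface proteins were higher in Saos-2, EPCAM at 9.45 and 9.59 in Saos-2 against 3.26 and 3.43 in MG-63 (adjusted p = 7.58e-06) and the tight junction protein OCLN at 12.93 and 11.57 in Saos-2 against 7.08 and 6.58 in MG-63 (adjusted p = 2e-05). The epithelial markers called higher in MG-63 were PKP2, KRT19, ESRP1, KRT7 and GRHL2, by 2.69, 2.06, 2.05, 2 and 1.11 log2 units. CD14, the coreceptor for bacterial lipid, was higher in MG-63, at 8.05 and 8.54 in MG-63 against 4.06 and 4.17 in Saos-2 (adjusted p = 4.46e-05). MYL1, a fast muscle myosin light chain, had 11.52 and 7.33 in Saos-2 against 4.37 and 3.79 in MG-63 (-5.35 ± 0.72 SE, adjusted p = 0.00116). PAX7, a factor of muscle stem cells, had 7.78 and 6.61 in Saos-2 against 3.79 and 4.14 in MG-63 (-3.23 ± 0.39 SE, adjusted p = 0.000686), with no other of the 25 muscle markers called in Saos-2. MYL1 lost its call without MG-63 sh-NC (adjusted p = 0.146) or MG-63 sh-circ_0000073 (adjusted p = 0.174).

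Genes often used to normalize measurements were called about as often as other expressed genes. Of 25 reference genes, 8 were called in each direction (3 to 6 and 3 to 4 with an array left out), with a median of 0.08. TFRC, the transferrin receptor, had 16.3 and 16.07 in Saos-2 against 11.55 and 12.42 in MG-63 (-4.2 ± 0.28 SE, adjusted p = 4.08e-05). GUSB had 10.68 and 10.4 in Saos-2 against 7.68 and 7.86 in MG-63 (-2.77 ± 0.29 SE, adjusted p = 0.00032), whereas ENO1, at 19.1 and 19.25 in MG-63 against 19.06 and 19.13 in Saos-2, and EEF1A1, at 19.67 and 19.73 in MG-63 against 19.49 and 19.61 in Saos-2, were not called (adjusted p = 0.706 and 0.408). Of 30 ribosomal protein genes, 12 were called higher in MG-63 and 6 in Saos-2 (1 to 8 and 0 to 2 with an array left out). The members furthest apart were RPL24 with 17.04 and 17.15 in MG-63 against 14.38 and 14.37 in Saos-2, and RPL5 with 9.24 and 10.11 in Saos-2 against 7.2 and 7.2 in MG-63. Quantile normalization turned the medians of both lists to -0.24 and -0.27, so no direction is given for them. Ribosomal protein genes have many near-identical pseudogenes whose probes may share signal.

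The 15 largest alike differences in each direction, among genes with a log2 signal of at least 8 on both arrays of the higher line, are given here as values, since their size chose them. Those given above with a p-value were printed as list members. In MG-63 they were led by CLEC2B, a C-type lectin, with 17.58 and 17.6 in MG-63 against 3.65 and 4.03 in Saos-2. They went on with BGN, RSAD2, LOX and COL6A3, given above, and NFIB, a transcription factor, with 16.56 and 16.98 in MG-63 against 4.05 and 3.41 in Saos-2. ASS1, the enzyme that joins citrulline and aspartate in arginine synthesis, had 17.33 and 17.2 in MG-63 against 4.34 and 4.16 in Saos-2. Its processed pseudogene ASS1P11, which shares most of its sequence, had 14.28 and 14.08 in MG-63 against 3.06 and 3.41 in Saos-2, so the signal of the copies cannot be separated. TM4SF1, a membrane protein of migrating cells, had 16.69 and 17.53 in MG-63 against 4.17 and 4.2 in Saos-2. KRTAP1-5, a keratin-associated protein, had 15.71 and 16.09 in MG-63 against 3.03 and 3.02 in Saos-2. ANPEP (CD13), a surface peptidase, had 16.38 and 16.46 in MG-63 against 3.91 and 3.41 in Saos-2. Each gene of this paragraph up to ANPEP, other than LOX, lay under 5 on both Saos-2 arrays. FGF2, a growth factor for mesenchymal cells, had 16.41 and 17.85 in MG-63 against 4.53 and 4.32 in Saos-2. PLIN2, the coat protein of lipid droplets, had 15.97 and 16.26 in MG-63 against 3.56 and 3.61 in Saos-2. LURAP1L had 16 and 16.44 in MG-63 against 4.22 and 3.61 in Saos-2. MX1 and POSTN completed the 15.

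In Saos-2 the largest were EPYC, HAPLN1 and ALPL, followed by AJAP1, a protein of adherens junctions, with 15.24 and 15.52 in Saos-2 against 3.75 and 3.57 in MG-63. VSNL1, a neuronal calcium sensor, had 16.6 and 16.4 in Saos-2 against 5.69 and 5.1 in MG-63. PLAC8 had 15.37 and 15.31 in Saos-2 against 4.74 and 4.34 in MG-63. ADGRL2 (latrophilin-2), an adhesion receptor, had 13.64 and 14.12 in Saos-2 against 3.53 and 3.75 in MG-63. SLN (sarcolipin), which restrains the calcium pump of muscle, had 13.2 and 14.16 in Saos-2 against 3.73 and 3.61 in MG-63. QPCT, which forms pyroglutamate at protein ends, had 15.79 and 16.07 in Saos-2 against 6.33 and 6.43 in MG-63. SPANXB1, a sperm protein of a near-identical family, had 11.81 and 14.58 in Saos-2 against 3.58 and 3.88 in MG-63. COL11A1, BMP4, DLX5, PANX3 and CDKN2A stood among them.

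A stricter group held genes under a log2 signal of 5 on both arrays of one line and at 8 or more on both arrays of the other. There were 172 such genes for MG-63 (0.514% of genes) and 129 for Saos-2 (0.386%), of which 154 and 113 were coding. Beyond the genes already named, the MG-63 group held CXCR4, the chemokine receptor of homing cells, at 15.53 and 14.87 in MG-63 against 4.66 and 4.35 in Saos-2, HGF, the ligand of MET, at 13.22 and 13.91 in MG-63 against 3.77 and 4.03 in Saos-2, and SERPINB5 (maspin) at 13.69 and 14.17 in MG-63 against 3.68 and 4.05 in Saos-2. Among transcription factors it held GATA6 at 9.5 and 9.9 in MG-63 against 4.19 and 4.41 in Saos-2 and BNC1, a factor of basal epithelium and germ cells, at 9.96 and 11.15 in MG-63 against 3.23 and 3.85 in Saos-2. The Saos-2 group held HHIP, an inhibitor of hedgehog ligands, at 12.34 and 13.09 in Saos-2 against 3.51 and 4.77 in MG-63, and GLI2, a hedgehog transcription factor, at 9.7 and 8.48 in Saos-2 against 4.96 and 4.15 in MG-63. MYB, at 9.33 and 9.61 in Saos-2 against 3.64 and 4.35 in MG-63, and CD70, a ligand of the TNF family, at 8.06 and 8.2 in Saos-2 against 3.45 and 3.15 in MG-63, were in it as well. These 9 genes were picked after their values were seen.

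Runs of neighbouring genes with like differences were found on several chromosomes. Protein-coding genes with a log2 signal of at least 8 in a line were put in RefSeq order, and the median difference was taken over each run of 15 genes. Over 6725 runs these medians went from -4.96 to 6.92, and 155 runs were at least 8-fold apart. Neighbouring runs overlap in most of their genes, so the 155 are not separate regions. A gene can also pass the minimum signal through the line in which it is high, as NFIB did, so large differences enter more readily. The medians and the counts by direction describe genes chosen in this way and were not tested. The runs named here share no genes. The highest run, on chromosome 9 from LURAP1L to MLLT3, had all 15 genes higher in MG-63, from 0.34 for HAUS6 to 13.04 for NFIB. It also held RPS6 at 17.65 and 17.65 in MG-63 against 16.26 and 16.62 in Saos-2 and PLIN2, named above. A run is fixed at 15 genes, and the next genes in this order kept the direction, with FOCAD at 2.295, HACD4 at 8.565 and KLHL9 at 5.52. After them MTAP, at -1.295, and CDKN2A pointed the other way. Both next runs were on chromosome 8, from POLR3D to DPYSL2 (median 4.61) and from FBXO25 to TUSC3 (median 4.33), where 14 and 15 of 15 genes were higher in MG-63. On chromosome 16 a run from BBS2 to PLLP (median 3.83) took in 7 metallothionein genes, close copies whose probes may share signal.

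In favour of Saos-2 the lowest run was on chromosome 6 from TRIM38 to H2BC9, at a median of -4.96. It consists but for TRIM38 of histone genes, which are near-identical in parts, so single members are uncertain. The next, on chromosome 1 from GBP2 to MTF2, had a median of -4.39, with 14 of 15 genes higher in Saos-2. It holds CDC7, a kinase that fires replication origins, at 12.37 and 12.87 in Saos-2 against 7.1 and 6.96 in MG-63, RPL5, the ribosomal protein given above, and as the exception TGFBR3 (betaglycan), at 10.25 and 11.09 in MG-63 against 6.25 and 5.12 in Saos-2. Another on chromosome X, from SPANXA2 to CSAG1, holds cancer-testis genes. A run on chromosome 6 from RANBP9 to SOX4 (median -2.98) contains E2F3, at 10.58 and 10.81 in Saos-2 against 7.29 and 7.22 in MG-63. DNA copy number was not measured, and its part in these runs was not tested.

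By whole chromosome, the share of such genes alike and higher in MG-63 was 51.7% on chromosome 8 and 49.3% on chromosome 5 against 29.6% over all, and the share alike and higher in Saos-2 was 46.5% on chromosome 4, 42% on chromosome 6 and 40% on chromosome 14 against 26% over all. The median difference went from -1.1 on chromosome 4 to 1.32 on chromosome 8. These shares and medians rest on the same minimum signal, which a gene can pass through a single line.

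**Figure D5:**
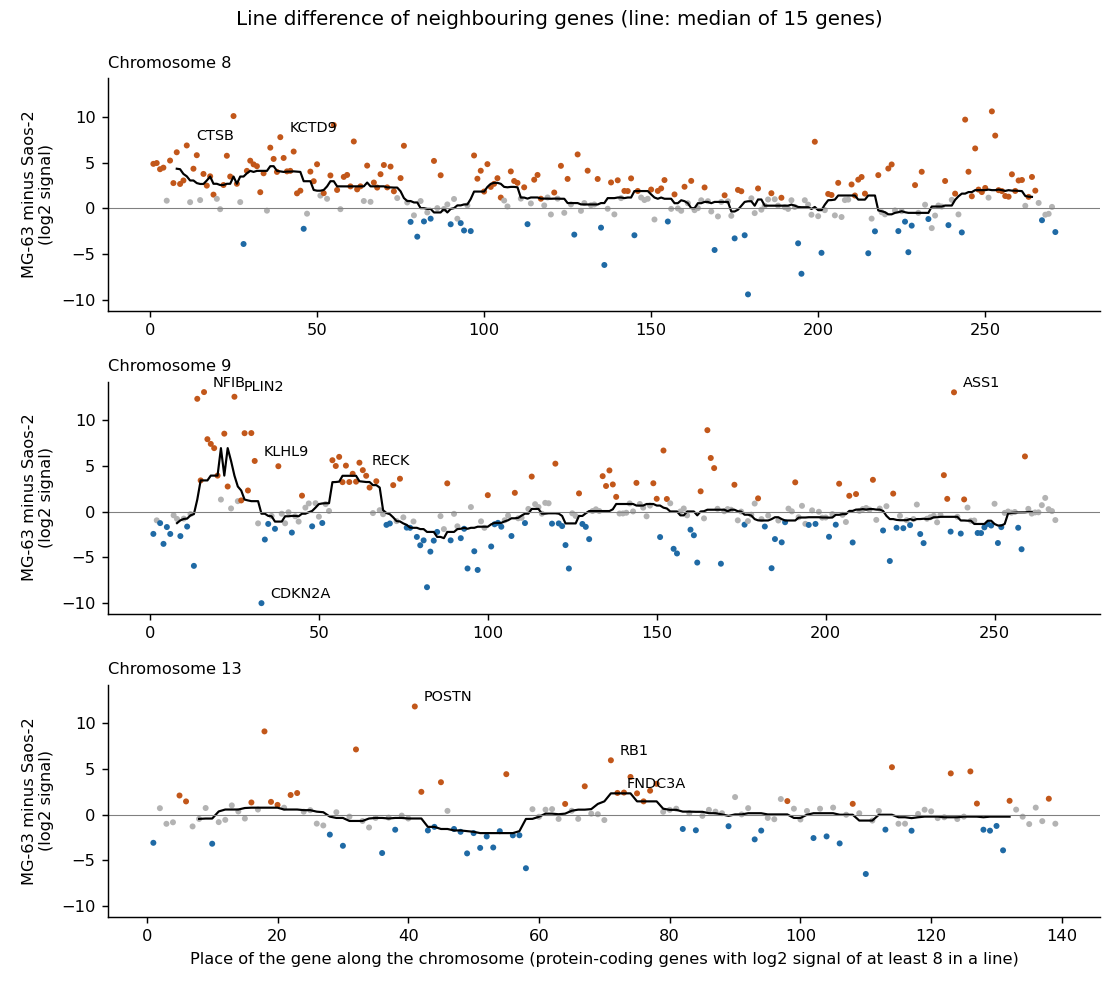
MG-63 minus Saos-2 in log2 signal for protein-coding genes in their order along chromosomes 8, 9 and 13, with orange and blue points for genes alike and higher in MG-63 or Saos-2, grey points for the others and a line for the running median of 15 genes. The median rises on chromosome 9 around NFIB and PLIN2, falls back before CDKN2A, and on chromosome 13 lies above 0 at RB1 and the genes just after it.

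Genes restricted to MG-63 had fewer CpG in their promoters than coding genes in general, and those restricted to Saos-2 about as many. This is given as a description. In the 250 bases before the start, the median number of CpG was 18 over all coding genes. It was 21 over coding genes with a log2 signal of at least 6 and 20 and 21 over alike genes of MG-63 and of Saos-2. Over genes restricted to MG-63 and to Saos-2 it was 12 and 17. It was 6 over interferon-stimulated genes, 9 over bone matrix genes and 27 over E2F targets. The letters TGTGGT, which RUNX factors bind, were searched on both strands and lay in 3 of 20 promoters of the bone matrix list, 7.13% of promoters of coding genes alike and higher in Saos-2, and 8.81% of all. They were not in the windows of ALPL and IBSP.

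Further probe sets had no part in choosing the genes. The alike genes had 879 of them in 529 genes, of which 63.1% had the gene's direction with both hairpins and 24.1% reached 2-fold again. Of the 288 with a log2 signal of at least 6 on both arrays of a line, 88.9% had that direction and 173 reached 2-fold, but a probe set can pass this minimum through the line in which its gene is high. In 5 the difference was at least 2-fold the other way. CEMIP2, a hyaluronidase of the cell surface, is an example of agreement in direction and not in size: its brightest probe set had 13.56 and 13.75 in Saos-2 against 5.44 and 5.34 in MG-63, and a further one 8.85 and 8.26 in Saos-2 against 4.59 and 5.84 in MG-63. ATP8B1, a lipid flippase, had a further probe set that did not repeat the difference, with 15.79 and 15.73 in MG-63 against 5.45 and 6.03 in Saos-2 for the brightest and 7.14 and 7.5 in Saos-2 against 6.97 and 6.76 in MG-63 for another.

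Coding genes took the largest part. Of 17618 coding genes 15.4% were alike and higher in MG-63 and 13.7% higher in Saos-2, against 4.06% and 2.91% of 3130 long noncoding RNA genes and 3.01% and 2.51% of 9509 pseudogenes. Only 3 of 375 olfactory receptor genes were alike and higher in MG-63 and 0 in Saos-2.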

How the data were processed

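The data were log2 signals of 135750 probe sets on 4 arrays, 1 for each line and hairpin. The authors made the deposited log2 values with Affymetrix Expression Console from total RNA labelled with a WT Pico kit; how signals were summarised and background-corrected, and by which software version, was left unstated (not given in the sources used here), and the table holds no detection calls. The number of arrays limits the precision, and the deposited table had 0 columns that were left unused. Probe sets were named through the platform annotation, with symbols updated through RefSeq: 36176 had exactly 1 symbol, 1119 had several and 98455 had none here. The brightest probe set stood for each of 33458 genes. Line differences were fitted with limma 3.58.1 (R 4.3.3; trend in the moderation, hairpin as block, Benjamini-Hochberg adjustment over 36176 probe sets) and the fit was tested on simulated data. Tables were handled with Python 3.11.15 and pandas 2.3.3.

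Named genes were the markers, the members of each list furthest apart (up to 8), members that define a list, the 15 largest alike differences in each direction, and the neighbours of RB1 and CDKN2A. Others named, among them genes of neighbouring runs, genes with further probe sets and members named beside their relatives, were picked with their values in view. The genes described and the lists were chosen with earlier results of these data known. Of 864 listed genes, 87 were not analysed here, and a few listed genes are not reported here. Alternatives were median centring, quantile normalization, no hairpin block, no trend, robust moderation, other limits, and each array left out. Sequences came from RefSeq (GRCh38.p14), which was also used for gene order; the build of the array annotation is not given in the sources used here, so no gene coordinates are printed for it.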

Additional observations from a re-analysis of the deposited data

Results flagged for a closer look

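Only 5 genes differed by at least 2-fold between the lines in opposite directions under the hairpins, and the difference between the hairpins was not tested for any of them, since each combination had a single array. BLNK, an adaptor of B cell receptor signals, was higher in MG-63 by 1.43 on the log2 scale with sh-NC and had a difference of -1.39 with sh-circ_0000073. GJB2 (connexin 26) had 1.13 and -1.46, and ZNF248, a zinc finger gene, 1.06 and -1.18. The pseudogenes RNU6-175P and RNU6-647P, copies of the U6 small nuclear RNA, had -1.47 and 1.05, and -1.28 and 1.5. Among 98455 probe sets without a symbol here, which the report leaves aside, 4865 (4.94%) met the same rule for alike differences, 1837 of them higher in MG-63 and 3028 higher in Saos-2.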

How the results depend on the processing

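The number of calls stayed within 1.5 times the reported one under median centring, quantile normalization, no hairpin block, no trend, robust moderation, a minimum log2 signal of 6 and 1 probe set a gene. The balance of the directions turned, from 4968 calls higher in MG-63 and 4312 in Saos-2 to 4611 and 4630 under median centring and 4774 and 5163 under quantile normalization, which also gave 2944 alike genes higher in MG-63 and 3175 in Saos-2. Leaving out an array, which also removes the block, gave 2172 to 2509 calls higher in MG-63 and 1848 to 2213 higher in Saos-2. Requiring 4-fold left 1569 and 1299 alike genes higher in MG-63 and in Saos-2. Limits of 4.5 and 9 left 88 and 57 line-restricted genes, and limits of 6 and 8 gave 295 and 240. The median of the neural markers was 0.23 and turned to -3.23 among members with a log2 signal of at least 6. Only 2 members enter there, with INA passing through Saos-2 alone, so no direction is read from this median. Of 120 called genes named with a test, 18 lost the call with an array left out, MTAP lost it without the hairpin block, and 0 changed sign under any alternative. Some genes not called in the report changed sign: under quantile normalization COL6A1 (-0.26), ENO1 (-0.24), HLA-B (-0.14), HLA-C (-0.01), IGF1R (-0.11) and MED4 (-0.15, and -0.02 under median centring), and with an array left out CDC6 (-0.58 to 0.10), CDKN2B (-0.60 to 0.05), COL6A1 (-0.06 to 0.24) and MED4 (-0.17 to 0.25). No paired analysis beyond the hairpin block was possible because each line has 1 array per hairpin.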
